A study of Mus musculus with 19 samples.

Results

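The regions described here are 4825 peaks of acetylated histone H3 lysine 27 (H3K27ac) from cultured mouse hippocampal neurons that one untreated sample listed and neither stimulated sample did. A peak was a member when the larger untreated list gave it a score of 200 or more and it overlapped no peak of the 2 Bic/4AP lists by even 1 base. The list holds 49701 peaks, 20027 of them at a score of 200 or more, so members made up 24.1% of the high-scoring peaks (exact 95% binomial interval 23.5% to 24.7%, which covers counting error only). The other 15202 high-scoring peaks, which overlapped a Bic/4AP peak, are called shared peaks below. Members were chosen on the H3K27ac lists and the score, so their absence from the Bic/4AP lists is how they were defined and not a result. The highest scores left out were 199.87, 199.92 and 199.97, and the lowest scores taken in were 200.04, 200.08 and 200.24.

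All samples were hippocampal neurons of embryonic day 17 mice kept for 10 days in culture. ChIP and RNA samples came from ICR mice and the bisulfite libraries from C57BL/6 mice, so methylation was not measured in the animals that gave the peaks. Groups were untreated, treated for 3 h with bicuculline and 4-aminopyridine (Bic/4AP), or treated with tetrodotoxin (TTX) for a time not given in the sources used here. Bicuculline blocks GABA-A receptors and 4-aminopyridine blocks potassium channels, which together raise firing, while TTX blocks voltage-gated sodium channels and silences it. Data used were 2 untreated and 2 Bic/4AP lists of H3K27ac peaks, 2 untreated lists of histone H3 lysine 4 monomethylation (H3K4me1), 3 RNA libraries per treatment and 1 bisulfite library per treatment. The labels do not say whether the replicate libraries were made from different cultures. A p-value here therefore reflects only how these libraries vary, which may be technical.

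The 4 H3K27ac lists differ widely in length, with 4846 and 49701 peaks untreated and 7721 and 55035 peaks with Bic/4AP. Membership therefore rests almost entirely on the longer list of each treatment: with the longer Bic/4AP list alone the number of members was 4854. The reverse set was of similar size, since 5914 of 21713 high-scoring peaks of the longer Bic/4AP list (27.2%) overlapped no untreated peak. RNA libraries held 4.27 to 12.5 M reads recovered from the deposited values, and the 10 neuronal markers checked summed to 683 to 805 RPKM untreated, 1107 to 1135 with Bic/4AP and 649 to 722 with TTX. The 9 astrocyte markers summed to 135 to 145, 202 to 233 and 172 to 194 RPKM, so both lists moved with the Bic/4AP contrast, and their part in the results was not tested. Fos, an immediate early gene, stood at 9.76 ± 2.5 RPKM without treatment and 185 ± 8.87 with Bic/4AP (SD, n = 3 each). Npas4, an activity-induced transcription factor, stood at 8.5 ± 1.5 and 124 ± 8.94 RPKM in the same groups. The 8 choroid plexus markers summed to 397 to 594 RPKM in the untreated libraries, 32.4 to 38.0 with Bic/4AP and 12.8 to 17.4 with TTX, so a marker list of another cell type moved with the contrasts used below. None of the 8 was linked to a member, and the part of these cells in the results was not tested. In bulk samples, fewer cells of a type and less RNA per cell cannot be told apart.

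H3K27ac marks active promoters and enhancers, the distal sequences that raise transcription of genes which can lie far away. H3K4me1 is the usual mark of enhancers, active or poised, whereas methylation of CpG sites is typically low at active promoters and intermediate to high at distal enhancers. In neurons, enhancer acetylation is known to change with synaptic activity within hours.

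Of the members, 111 held a whole RefSeq promoter window, the 250 bases before to 50 bases after a transcription start site (TSS). Promoters of 4 genes are shown, because for these the peak, the methylation and a change in RNA can be read at one place. Sequences are RefSeq GRCm38.p6, 5′ to 3′ on the strand of the gene, and capitals mark matches on either strand to the motifs searched: AP-1 TGANTCA, CRE TGACGTCA, E-box CAGCTG and CATCTG, SP/KLF GGGCGG, EGR GCGTGGGCG, and those of MEF2 and NRF1. The Chrd window lies at chr16:20732877-20733176 (plus strand), Kcnip3 at chr2:127522045-127522344 (minus strand), Oprl1 at chr2:181714766-181715065 (plus strand) and Jakmip1 at chr5:37084986-37085285 (plus strand).
Chrd: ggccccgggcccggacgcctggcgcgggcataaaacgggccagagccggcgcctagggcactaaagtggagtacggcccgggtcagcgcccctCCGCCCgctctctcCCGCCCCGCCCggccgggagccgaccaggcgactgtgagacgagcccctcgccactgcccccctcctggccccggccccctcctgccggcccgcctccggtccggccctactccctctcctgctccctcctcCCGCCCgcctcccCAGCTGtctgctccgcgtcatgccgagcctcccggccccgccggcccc
Kcnip3: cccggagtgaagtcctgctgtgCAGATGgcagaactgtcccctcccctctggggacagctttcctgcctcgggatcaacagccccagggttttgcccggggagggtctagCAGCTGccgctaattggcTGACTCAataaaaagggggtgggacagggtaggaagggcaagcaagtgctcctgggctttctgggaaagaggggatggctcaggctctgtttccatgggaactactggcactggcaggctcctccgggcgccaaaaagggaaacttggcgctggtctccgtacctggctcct
Oprl1: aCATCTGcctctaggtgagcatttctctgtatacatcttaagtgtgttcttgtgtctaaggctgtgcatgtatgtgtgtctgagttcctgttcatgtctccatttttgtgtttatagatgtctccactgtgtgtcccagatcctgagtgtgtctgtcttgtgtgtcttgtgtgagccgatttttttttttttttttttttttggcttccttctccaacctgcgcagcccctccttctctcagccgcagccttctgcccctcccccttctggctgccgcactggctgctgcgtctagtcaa
Jakmip1: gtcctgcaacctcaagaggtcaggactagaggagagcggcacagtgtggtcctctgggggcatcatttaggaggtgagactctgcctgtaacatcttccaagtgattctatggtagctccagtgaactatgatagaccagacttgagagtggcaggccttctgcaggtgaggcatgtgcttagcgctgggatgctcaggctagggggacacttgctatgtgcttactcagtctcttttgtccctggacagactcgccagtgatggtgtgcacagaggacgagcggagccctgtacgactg

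Chrd encodes chordin, a secreted antagonist of bone morphogenetic proteins, and its window is GC-rich (78.3% G or C), with 4 SP/KLF matches and 1 CAGCTG. These 4 matches lie on the opposite strand, and a pair of them share 1 base. Kcnip3 encodes calsenilin, a calcium-binding protein that acts on potassium channels and on transcription, and its window holds 1 AP-1 match and 1 of each E-box. The window of Oprl1, the nociceptin receptor gene, holds 1 CATCTG, and that of Jakmip1, which encodes a protein that binds Janus kinases and microtubules, holds none of the motifs. Over the 129 promoter windows held by members, CATCTG was found in 27.1%, CAGCTG in 23.3%, SP/KLF in 21.7% and AP-1 in 10.1%. Over all 32851 windows of the table the shares were 17.2%, 16.3%, 35.7% and 7.81%. MEF2 was found in 2.33% of the members' windows (3.69% of all), NRF1 in 0.775% (0.971%), and CRE and EGR in none (1.79% and 0.612%). These are counts of letters in a window and not of bound sites.

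Members were mostly away from promoters. A TSS lay in the peak or within 1 kb of it for 249 of the 4658 members on chromosomes covered by the TSS table (5.35%), against 3353 of 14631 shared peaks (22.9%). Counting either end of gene models whose strand the tables do not give brought the shares to 9.12% and 29.3% of all peaks. A gene model overlapped 57.5% of members and 76.1% of shared peaks, and a protein-coding one 47.3% and 68.1%. Members had a median width of 1675 bases, from 443 to 9769, against 2186.5 for shared peaks, and a median score of 342.87 against 594.855. Within a score band the widths were close, with medians of 1314.5 and 1262 bases between 200 and 300.

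Members were a smaller share of the peaks at higher scores. They were 39.0% of peaks with scores from 200 to 300, 30.9% from 300 to 500, 20.5% from 500 to 1000 and 6.12% from 1000 upwards. By chromosome the share ran from 19.5% on chromosome 10 to 28.4% on chromosome 1, with 24.0% on X. The nearest Bic/4AP peak lay a median of 19.2 kb away, and 454 members had one within 1 kb.

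The other untreated list, which the rule did not use, held few of the members. It overlapped 87 of them (1.8%, exact 95% interval 1.45% to 2.22%), against 3173 shared peaks (20.9%, 20.2% to 21.5%). The share grew with the score, from 0.881% of members between 200 and 300 to 5.23% from 1000 upwards, but shared peaks stood at 10.0% and 36.4% in the same bands. The same comparison for Bic/4AP-only peaks, made against the shorter Bic/4AP list, gave 10.7%. The other untreated list is far shorter and holds only 163 peaks at a score of 200 or more, so its part in these low shares cannot be told apart from a difference between the samples.

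With peaks near and away from a TSS counted together, overlap with H3K4me1 was closer between members and shared peaks. At least 1 of the 2 untreated H3K4me1 lists overlapped 1092 members (22.6%), and both overlapped 342 (7.09%), against 28.2% and 12% of shared peaks. Split by position, over all scores and on chromosomes covered by the TSS table, the shares were further apart. With no TSS within 1 kb, 22.5% of members and 32.8% of shared peaks overlapped at least 1 list. Within 1 kb of a TSS the order was reversed, at 28.5% and 12.05%. Score bands were counted only with both positions together, and in each band the shares of members and shared peaks were close. They were 17% and 14.0% between 200 and 300, and 21.9% and 21.1% up to 500. Higher up they were 29.2% and 27.4% up to 1000, and 39.5% and 43.1% above. Bic/4AP-only peaks overlapped these untreated H3K4me1 lists in 6.63%, 8.10%, 11.5% and 17.1% of cases in the same bands. Members are regions and not replicates, so these shares carry no test between sets.

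**Figure D1:**
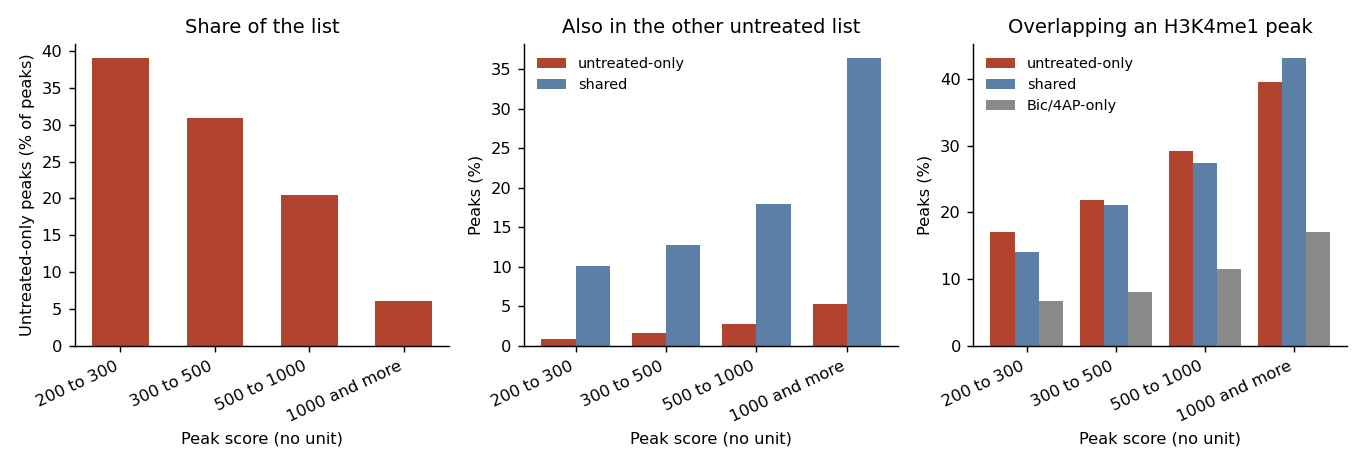
Percent of peaks by score band (authors' score, no unit) that are untreated-only (left), that the other untreated H3K27ac list also holds (middle) and that overlap an untreated H3K4me1 peak (right). Untreated-only peaks fall from 39.0% to 6.12% of the list, stay at or below 5.23% in the other untreated list, and reach 39.5% with H3K4me1 against 17.1% of Bic/4AP-only peaks.

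Of the 10 members with the highest scores, 9 lay in no protein-coding gene model, and 5 shared a score of 3100. The first, chr6:51876941-51886335, lies within Skap2, a gene of a Src kinase adaptor, was also in the other untreated list, and had a methylation level of 0.710 untreated. At chr3:18711403-18717053 there is no protein-coding gene model, the other untreated list again held the peak, and methylation was 0.513. The member at chr12:33127758-33133378 lies 13.6 kb from Atxn7l1, which encodes an ataxin-like subunit of a histone acetyltransferase complex, and both H3K4me1 lists overlapped it. The remaining 2 were chr3:120981744-120985211, with a low methylation of 0.255, and chr1:113430291-113436699, with 0.825. Next in score came chr1:177570939-177576406 at 3081.19, also in the other untreated list. RNA of Atxn7l1 was 18.3, 21.3 and 21.5 RPKM without treatment and 14.9, 14.0 and 14.7 with Bic/4AP, 2 groups that do not overlap, and it fell by 0.46 ± 0.07 (SE) on the log2(RPKM + 1) scale (limma, adjusted p = 1.25e-04).

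Among the 87 members found in both untreated lists, 28 also overlapped H3K4me1 (32.2%), and the median score was 552.36. One of them covers the Jakmip1 promoter shown above, at chr5:37082585-37085689, with a score of 1232.38 and an overlap with both H3K4me1 lists. A member inside Rfc1, which encodes a subunit of the clamp loader of DNA replication, scored 2067.56 and had a methylation of 0.810.

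The share of members varied between regions. Another member lay within 10 kb for 1440 of them (29.8%), and a shared peak for 1421 (29.5%). The same shares were not computed for shared peaks, so these 2 values do not say whether members cluster more than other peaks. Of 253 windows of 1 Mb with 20 or more high-scoring peaks, the median window had 20% members, and in 12 windows members made up at least 50% of the peaks. The window with the largest share was the first Mb after position 18000001 on chromosome 3, where 23 of 29 high-scoring peaks were members (79.3%). The longer untreated list had 68 peaks of any score there, the longer Bic/4AP list 9, the shorter lists 6 untreated and 2 Bic/4AP, and each H3K4me1 list 1. Scores of these 23 members ran from 203.32 to 3100, and methylation in the 18 that could be measured had a median of 0.708 untreated, 0.734 with Bic/4AP and 0.706 with TTX.

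A window on chromosome 17, from 30000001 to 31000000, came next, with 18 members of 25 high-scoring peaks (72.0%). It holds 12 members in Btbd9, which encodes a BTB-domain protein, and 4 in Dnah8, an axonemal dynein gene. Here H3K4me1 peaks were dense, at 90 and 80 per list, and 12 of the 18 members overlapped one. The longer untreated H3K27ac list had 57 peaks in the window and the longer Bic/4AP list 16. Other windows rich in members lay on chromosome 1 from 132000001 (16 of 27 peaks, around Nfasc and Cntn2, genes of axonal cell adhesion molecules, and Lemd1) and on chromosome 3 from 137000001 (22 of 38 peaks, 3 of them in Emcn, which encodes endomucin).

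**Figure D2:**
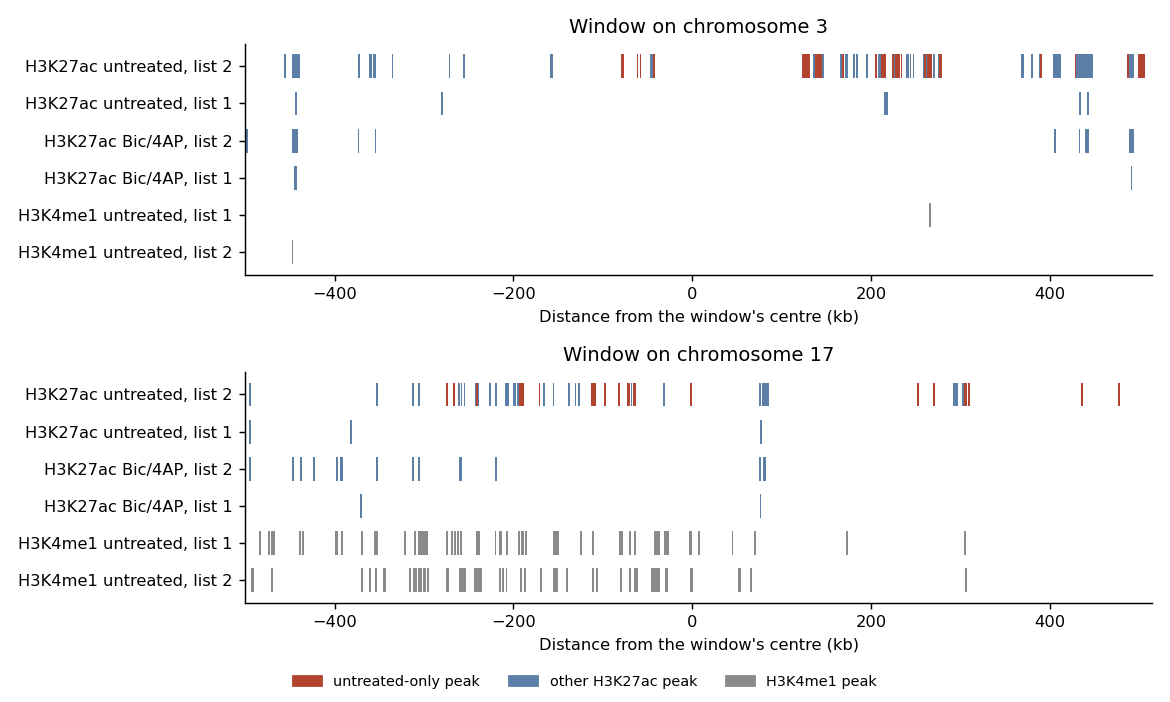
Peaks of each list in the 2 windows of 1 Mb with the largest share of untreated-only peaks, as distance in kb from the window's centre, with members in red. The longer untreated H3K27ac list has 68 and 57 peaks in the 2 windows and the longer Bic/4AP list 9 and 16, while each H3K4me1 list has 1 peak in the chromosome 3 window and 80 or more in the other.

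CpG methylation was higher in members than in shared peaks, as a description of 1 library per treatment. At least 5 CpGs were listed in all 3 bisulfite libraries for 4138 members, where the level is the mean of the per-CpG fractions. The median level untreated was 0.695, with 80% of members between 0.344 and 0.876, against a median of 0.567 for shared peaks. As a mean over CpGs, members stood at 0.601 and all CpGs listed at 0.742. Levels under 0.1 were found in 74 members (1.79%) and 20.9% of shared peaks, and levels of 0.8 or more in 1117 members (27%) and 14.8% of shared peaks. The gap was wider at promoters. Away from any TSS the medians were 0.702 and 0.649, while within 1 kb of one they were 0.522 and 0.0438. Members also had fewer CpGs, with a median of 0.746 listed per 100 bases against 1 in shared peaks, and within 1 kb of a TSS 1.25 against 3.86.

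Methylation of the members was nearly the same in the 3 libraries. The mean level was 0.648 untreated, 0.647 with Bic/4AP and 0.648 with TTX. The difference between Bic/4AP and untreated averaged -0.000992, its middle 50% of members ran from -0.0316 to 0.0296, and 144 members were higher and 138 lower by 0.1 or more. For TTX minus untreated the mean was 0.000105, with 124 members higher and 161 lower by that amount. With 1 library per treatment and no coverage in the files, no test or interval can be given for any single member. The largest rise was at chr9:86965332-86967114, from 0.452 untreated to 0.789 with Bic/4AP and 0.712 with TTX, over 6, 7 and 9 CpGs. The largest fall, at chrX:158920495-158922290, was from 0.555 to 0.234 with Bic/4AP and 0.243 with TTX, over 8, 14 and 10 CpGs. In both places the untreated library stands apart from the other 2. Both were picked on the difference from that library, and the libraries list different numbers of CpGs there. The lowest levels were 0.00219 at chr5:21701511-21702243, on the promoter of Napepld, the phospholipase gene of anandamide synthesis, and 0.00301 at chr1:133182232-133183133 in Plekha6. Napepld RNA was 11.3 ± 0.674 RPKM without treatment and 3.59 ± 0.507 with Bic/4AP (SD, n = 3 each). The highest was 0.988 at chr14:34691545-34693169 in Wapl, a cohesin release factor gene.

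**Figure D3:**
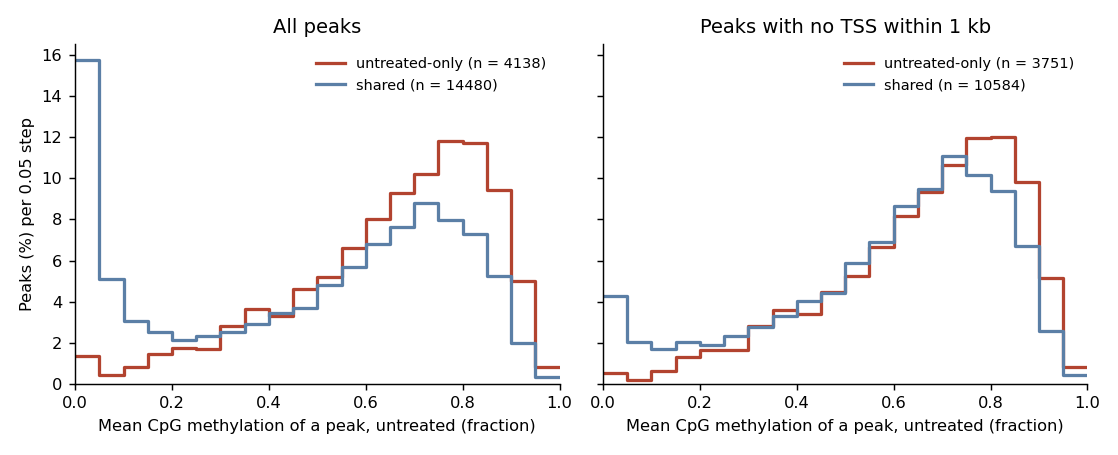
Distribution of the mean CpG methylation (fraction, untreated library) of untreated-only and shared peaks in steps of 0.05, for all peaks (left) and for those with no TSS within 1 kb (right). The peak of shared regions under 0.1 is nearly absent from the untreated-only ones (20.9% against 1.79%), and away from promoters the medians are 0.649 and 0.702.

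RNA of the genes near members was compared between treatments, which the rule did not use. The nearest gene within 50 kb was taken for 3662 members, and 1163 had none. Of 2787 distinct genes, 1207 had RNA values, 889 passed the filter of 1 RPKM in 3 libraries and were tested, and 318 did not pass. With Bic/4AP, 431 of the 889 were called lower and 232 higher, or 48.5% and 26.1%, at a limma adjusted p under 0.05. Over all 14801 genes tested, 72.1% were called in either direction, 42.5% lower and 29.6% higher. The counter's strand setting is not known, so reads of genes that overlap on opposite strands may be mixed. Quantile normalization moved the median log2 change of all genes from -0.12 to 0.06. Under it the counts of linked genes were 358 lower and 272 higher (40.3% and 30.6%), against 30.9% and 38.8% of all genes. The median log2 change of linked genes relative to the median gene was -0.09 under both scalings. Genes linked to a shared peak were called lower in 39.3% and higher in 36.8% of cases as deposited, and 36.0% and 33.7% after quantile normalization. The 437 genes linked to members alone gave 49.4% lower and 22.2% higher as deposited, and 34.8% and 33.6% after quantile normalization. These shares are descriptions, since genes are not replicates.

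Shares called lower were higher for genes close by, but less so after quantile normalization. With the nearest gene within 10 kb, 240 of 445 tested genes (53.9%) were called lower and 94 (21.1%) higher, with a median of -0.19 relative to the median gene. After quantile normalization these genes gave 42.9% lower and 26.3% higher, with a relative median of -0.13. Genes within 10 kb of a shared peak were called lower in 38.5% of cases as deposited and 36.5% after quantile normalization. Where a member lay inside a protein-coding gene model, the distance to its start was ignored. Of 1195 such genes tested, 629 (52.6%) were called lower and 272 (22.8%) higher. After quantile normalization those 1195 genes gave 43.2% lower and 28.9% higher. Members with H3K4me1 were linked to 324 tested genes, 174 of them lower (53.7%) and 77 higher, or 150 (46.3%) and 87 after quantile normalization. Members in both untreated lists were linked to only 26 tested genes, 9 lower and 7 higher (34.6% and 26.9%), or 8 and 11 after quantile normalization.

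The same counts were made by RNA level. With all genes ranked by mean RPKM over the 9 libraries and cut into 4 groups of equal size, linked genes were called lower in a larger share than all genes of each group, at 51.4% against 46.4% in the lowest, 67.0% against 59.4% in the next, 61.3% against 48.2% in the next and 22.2% against 16.2% in the highest. Only 34 of the 889 had a mean of 1 RPKM or more untreated alone, and 31 of these were called lower. Over all 14801 genes tested 615 did, with 572 called lower, and this selection itself favours a lower call. Among genes with a mean of at least 5 RPKM over all libraries, 47.8% of linked genes and 41.0% of all genes were called lower.

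TTX against untreated, which uses the same untreated libraries, gave 361 linked genes higher and 235 lower (40.6% and 26.4%). Over all genes tested 64.1% were called, 40.6% higher and 23.5% lower, so the linked genes were close to the background. With quantile normalization the linked genes were 36.3% higher and 33.4% lower, and all genes 37.3% and 31.9%. Gene models that hold a member were not as close: 365 of 1195 were called lower with TTX (30.5%), and 42.6% after quantile normalization. Gene models that hold a shared peak gave 28.3% and 40.3%.

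**Figure D4:**
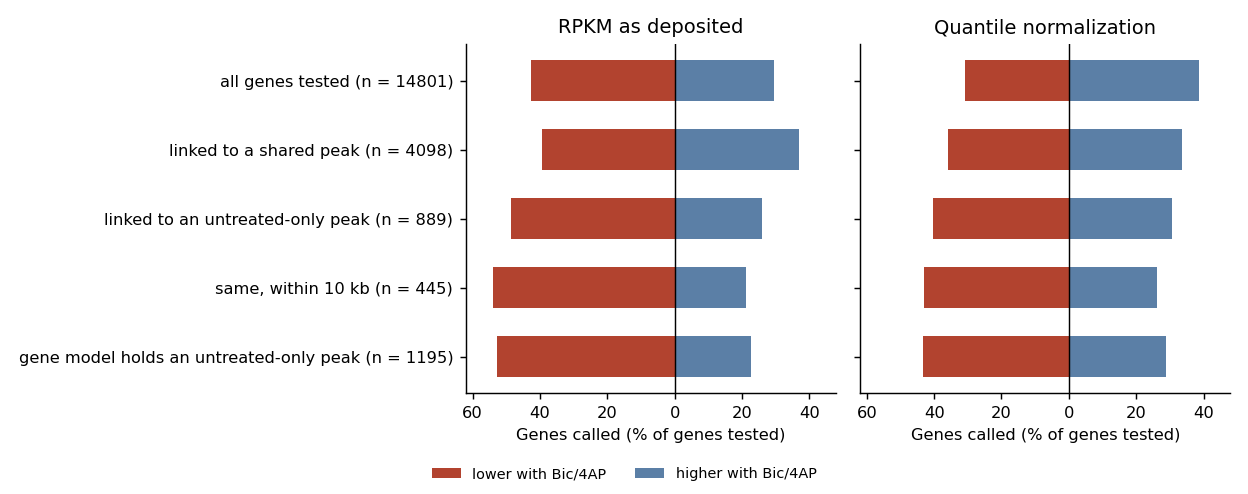
Percent of tested genes called higher (right of 0) or lower (left of 0) with Bic/4AP against untreated (limma, adjusted p under 0.05), for all genes and for genes linked to shared or untreated-only peaks, with RPKM as deposited (left) and after quantile normalization (right). Genes within 10 kb of an untreated-only peak were called lower in 53.9% of cases as deposited, against 42.5% of all genes. After quantile normalization the shares were 42.9% and 30.9%.

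At the promoters held by members the RNA values were as follows. Of the 111 genes whose window a member holds, 53 had RNA values and 37 were tested, with 19 lower (51.4%) and 5 higher (13.5%) with Bic/4AP, against 42.5% and 29.6% of all genes. After quantile normalization 14 were lower (37.8%) and 11 higher (29.7%), against 30.9% and 38.8% of all genes, and the median log2 change went from -0.34 to 0.03. Of the 19 lower calls, those of Abcb10, Ajap1, Cbfa2t3, Hint2, Lmo1 and Paqr7 were lost under that scaling, with a positive change in Hint2, Lmo1 and Paqr7, and of the 5 higher calls those of Cbx5 and Timp2. With TTX, as deposited, 20 were higher (54.1%) and 8 lower (21.6%), against 40.6% and 23.5% of all genes. Chrd measured 40.5, 31.5 and 49.4 RPKM without treatment, 1.41, 2.41 and 1.21 with Bic/4AP, and 4.35, 4.83 and 4.36 with TTX. Every untreated library was thus far above the other 6, and Chrd fell by 3.96 ± 0.18 (SE) on the log2 scale with Bic/4AP (limma, adjusted p = 8.91e-09). Its member, chr16:20731468-20733455, also overlaps the gene model of Thpo, and had a score of 318.43 and a methylation of 0.122 untreated, 0.131 with Bic/4AP and 0.102 with TTX. Kcnip3 measured 11.3, 10.8 and 13.1 RPKM without treatment and 3.28, 4.15 and 2.78 with Bic/4AP, a fall of 1.54 (adjusted p = 2.33e-06, limma), while TTX gave 11.5, 10.8 and 8.25. The Kcnip3 member, chr2:127520729-127522497, was nearly free of methylation, at 0.0351 untreated and 0.0498 with Bic/4AP.

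Oprl1 had the highest-scoring member of the 4, at 1961.82, with methylation of 0.519 untreated. Its RNA was 14.9, 17.8 and 12.3 RPKM without treatment, 7.40, 7.43 and 5.91 with Bic/4AP and 24.2, 25.7 and 22.5 with TTX, so the 3 groups lie apart, lowest with Bic/4AP and highest with TTX. The change with Bic/4AP was -1.01 on the log2 scale (limma, adjusted p = 1.55e-05). Jakmip1 fell by 2.13 (adjusted p = 3.16e-08, limma), from 42.5, 36.8 and 51.1 RPKM to 9.65, 10.2 and 7.55. A neuropeptide Y receptor gene, Npy2r, went from 8.02 ± 1.29 to 2.78 ± 0.512 RPKM (SD, n = 3 each). Timp2, a metalloproteinase inhibitor gene, was one of the 5 called higher, at 68.8 ± 4.31 untreated and 101 ± 0.694 RPKM with Bic/4AP, but its log2 change of 0.55 became 0.04 after quantile normalization.

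Of the list of 29 voltage-gated channel genes, 4 were linked to a member and all 4 were called lower, against 15 lower and 6 higher of the 28 tested. Cacna1h and Cacna1g encode low-threshold (T-type) calcium channels. Cacna1h measured 41.6, 33.4 and 48 RPKM without treatment, 5.48, 6.87 and 5.04 with Bic/4AP and 17.4, 17.6 and 15.3 with TTX, and fell by 2.62 ± 0.13 (SE) with Bic/4AP (limma, adjusted p = 1.24e-08). Cacna1g fell by 1.92, from 13.6 ± 1.54 to 2.87 ± 0.453 RPKM (SD, n = 3 each). Both were linked by an end of a gene model whose strand is not in the tables, so the member may lie at the 3′ end. Cacna2d3, an auxiliary calcium channel subunit gene, fell by 0.35. Counting gene models that hold a member, 11 channel genes were tested, with 9 lower and 2 higher. After quantile normalization 8 were lower and 1 higher, against 14 lower and 6 higher over the list.

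Excitatory synapse genes near members went both ways. Of the list of 50, 9 were linked, with 5 called lower and 4 higher, against 24 lower and 17 higher over the list. Dlgap2, a scaffold gene of the postsynaptic density, fell by 1.32 (limma, adjusted p = 6.65e-07), from 39.3, 34.2 and 46.5 to 13.2, 15.4 and 17.6 RPKM, and its member at chr8:14811828-14813815 overlapped both H3K4me1 lists. Smaller falls were those of Nrxn3, a presynaptic adhesion gene, by 0.35, Gria3, an AMPA receptor subunit gene, by 0.32, and Dlgap1 by 0.24. Camk2b, a calcium/calmodulin kinase gene, fell by 0.31, a call that was lost without the third untreated library (limma, adjusted p = 0.0578), although its change was -0.70 after quantile and -0.85 after cyclic loess normalization. In the other direction, Lrrtm1 and Lrrc4, which encode leucine-rich repeat adhesion proteins of excitatory synapses, rose by 1.00 and 1.02. Their members were distant and inside other genes: 49.9 kb from the Lrrtm1 TSS in Ctnna2, and 36.6 and 39.6 kb from that of Lrrc4 in Snd1. Lrrc4 measured 23.8, 26.0 and 22.0 RPKM without treatment and 45.6, 52.5 and 50.5 with Bic/4AP, and one of its 2 members, chr6:28871364-28873677, scored 930.52 and overlapped both H3K4me1 lists. Cdh2, the N-cadherin gene, rose by 0.32. Dlgap1, Camk2b, Cdh2 and Dlgap2 each had 1 member linked, beside 8, 4, 3 and 1 linked shared peaks. Their gene models held 36, 5, 6 and 17 shared peaks. Gria3, Dlgap2, Cdh2 and Grm5 were also linked by an end with no strand given. The metabotropic receptor gene Grm5 was called higher by 0.26 as deposited and lower, at -0.16, after quantile normalization. Among gene models that hold a member, 15 of the 50 excitatory synapse genes were tested, 11 lower and 4 higher. After quantile normalization 13 were lower and 1 higher, against 29 lower and 12 higher over the list.

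The remaining lists had few linked genes. For inhibitory synapses these were Gabra5 (0.45 higher, but 0.06 after quantile normalization), Gabbr2 (0.29 lower) and Lhfpl4 (no call), encoding 2 receptor subunits and a receptor-associated protein. All 3 linked transcription factor genes of neuronal identity were called higher, as were 22 of the 32 on that list (17 after quantile normalization, with 10 lower): Fezf2 by 1.83, Tbr1 by 0.61 and Meis2 by 0.59. Their members lay 31.7, 39.2 and 20.8 kb from the TSS, inside Cadps, Psmd14 and Meis2 itself. Fezf2, which specifies subcortical projection neurons, measured 16.9, 21.1 and 16.7 RPKM without treatment and 66.5, 66.4 and 68.6 with Bic/4AP. Among gene models that hold a member, 5 genes of that list were tested, 2 higher and 3 lower, or 1 and 3 after quantile normalization. The neuronal markers Rbfox3 and Snap25 were linked to 2 and 3 members, and fell by 0.60 and rose by 0.62 (0.09 after quantile normalization), while 9 of the 10 markers on that list were called higher and 1, Rbfox3, lower, or 5 and 2 after quantile normalization. The microglial marker C1qa was linked to 1 member and was not called (2.03 ± 0.236 RPKM without treatment, 1.71 ± 0.789 with Bic/4AP; SD, n = 3 each). No gene of the DNA methylation, astrocyte, oligodendrocyte, vascular, progenitor or choroid plexus lists was linked.

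Of the list of 20 rapid activity genes, all called higher, 1 was linked to a member: Nr4a3, an orphan nuclear receptor gene. Nr4a3 measured 45.6, 49.8 and 39.8 RPKM without treatment and 111, 115 and 115 with Bic/4AP, and rose by 1.33 ± 0.08 (SE, limma, adjusted p = 3.95e-08). Its member, chr4:48053247-48054525, scored 212.26, close to the threshold, and lay 1.26 kb from a Bic/4AP peak. Bdnf, the gene of the neurotrophin BDNF, went from 23.5, 23.7 and 21.6 to 77.4, 76.7 and 78.2 RPKM, a rise of 1.71 ± 0.06 (SE, limma, adjusted p = 1.56e-09). The member there, chr2:109694945-109697456, scored 562.49, lay 536 bases from a Bdnf TSS and only 106 bases from the nearest Bic/4AP peak, and 4 shared peaks were linked to the same gene. Its methylation was 0.0925 untreated, 0.0475 with Bic/4AP and 0.0975 with TTX.

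The other large rises among linked genes included Errfi1, a feedback inhibitor of the epidermal growth factor receptor, from 20.3 ± 2.36 to 90.8 ± 9.34 RPKM, and Dusp14, a phosphatase gene, from 21.3 ± 1.62 to 91.5 ± 6.08 (SD, n = 3 each). Nedd9, which encodes a focal adhesion scaffold, rose by 2.04, with 2 members in its gene model and no shared peak linked to it, and the one nearest to its start overlapped both H3K4me1 lists. Arl5b, a small GTPase gene, rose by 2.12, Fgl2 by 2.19 and Sln, the sarcolipin gene, by 2.23.

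The largest falls included genes listed at 0 with Bic/4AP, for which no fold is given. Ltc4s, the leukotriene synthase gene, measured 13.9, 10.7 and 16.6 RPKM without treatment and was listed at 0 in all 3 Bic/4AP libraries. The microRNA hairpin genes Mir138-1 (23.9 ± 3.98 RPKM untreated; SD, n = 3), Mir1231 and Mir7687 were also listed at 0 in all 3, and Mir6944 in 2 of them. These are values over short hairpin genes in poly(A) libraries and say nothing of mature microRNAs. Firre, a long noncoding RNA gene of the X chromosome, fell by 3.5, from 34.9, 28.0 and 40.2 to 2.56, 2.16 and 1.65 RPKM, and stood at 1.03 ± 0.154 RPKM with TTX (SD, n = 3). Anks6, a gene of a ciliary ankyrin-repeat protein, fell by 3.33 (limma, adjusted p = 1.06e-08), and its member, chr4:47009205-47013243, had a high score of 2030.82. Anks6 too was linked by an end with no strand given. These genes were also lower with TTX (limma, adjusted p under 0.05): Ltc4s measured at most 0.143 RPKM there, Mir7687 was listed at 0 in all 3 libraries, and Anks6 fell by 1.69. In all of them the untreated libraries were above the other 6. The TTX call of Mir6944 was lost with a pseudocount of 0.1 (limma, adjusted p = 0.0549). Ltc4s and Mir7687 passed the RNA filter through the untreated libraries alone, so their lower calls were largely set by that filter.

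**Figure D5:**
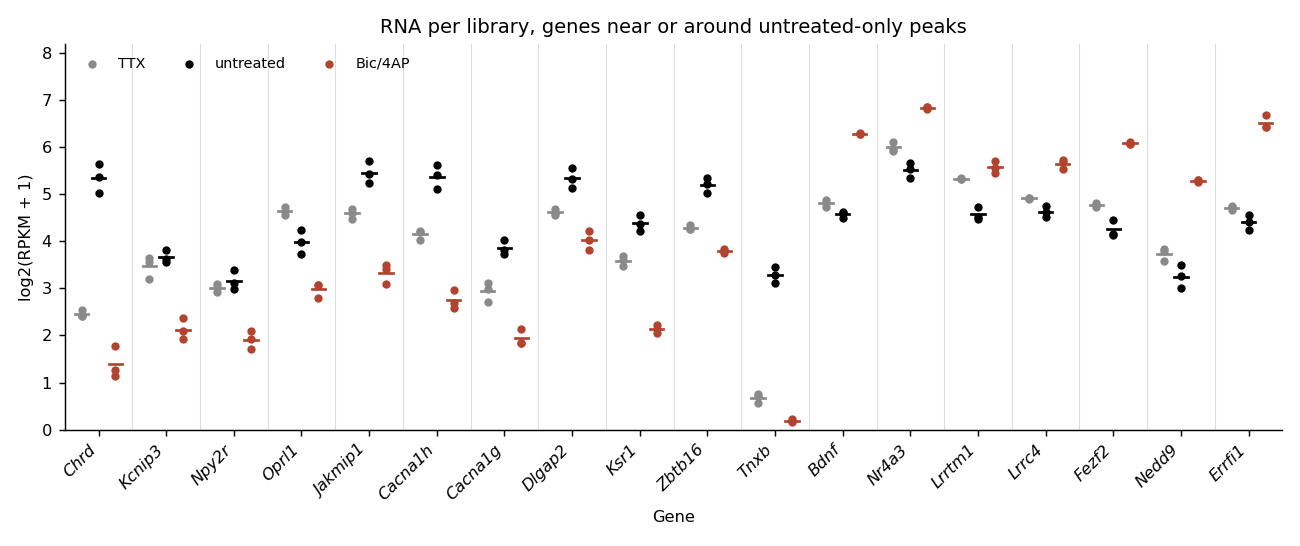
RNA of 18 genes near or around untreated-only peaks in each library, as log2(RPKM + 1), with points for the 3 libraries of a treatment and a line at their mean. In 11 genes (Chrd to Tnxb) the Bic/4AP libraries lie below all untreated ones, and in 7 (Bdnf to Errfi1) above them.

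Some genes held many members. Protein-coding gene models with 6 or more members numbered 27. Of these, 25 were tested, with 18 lower, 1 higher and 6 not called with Bic/4AP, or 14 lower and 1 higher after quantile normalization. All genes were called lower in 42.5% of cases as deposited and 30.9% after quantile normalization, and gene models that hold a shared peak in 41.7% and 37.4%. With TTX, 8 of the 25 were lower and 5 higher, where 23.5% of all genes were called lower and 40.6% higher. Macrod2, a gene of an ADP-ribose hydrolase, held 17 members and 19 shared peaks, and went from 13.1 ± 0.641 to 8.48 ± 0.260 RPKM (SD, n = 3 each; -0.57 on the log2 scale as deposited and -0.10 after quantile normalization). St6galnac3, a sialyltransferase gene, held 15, Ctnna2, the neuronal alpha-catenin gene, 14, Btbd9 12, and Tenm2 and Rbfox1, of a teneurin and a splicing factor, 11 each. Btbd9 measured 25.6, 24.6 and 24.1 RPKM without treatment, 17.4, 19.5 and 20.8 with Bic/4AP and 31.2, 31.4 and 30.8 with TTX. Rbfox1 was not called (48.8 ± 4.35 and 51.2 ± 3.36 RPKM; SD, n = 3 each).

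Larger changes were seen in other genes of this group. Ksr1, a scaffold gene of the MAP kinase pathway, held 6 members of 8 peaks and fell by 2.25 (adjusted p = 1.33e-08, limma), from 19.7, 17.8 and 22.6 to 3.41, 3.13 and 3.70 RPKM. Zbtb16, a zinc finger transcription factor gene, held 8 members, 5 of them with H3K4me1, and fell by 1.4. Kalrn, a guanine nucleotide exchange factor gene of dendritic spines, held 9 members and 30 shared peaks and fell by 1.28. Gse1 held 7 members and fell by 1.8.

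In 11 protein-coding gene models with 4 or more high-scoring peaks, every such peak was a member. Of the 10 tested, 6 were called lower and 3 higher with Bic/4AP, or 6 and 4 after quantile normalization, where 42.5% of all genes were called lower and 29.6% higher as deposited. With TTX, 6 were lower and 2 higher, and 10 genes are too few to set against such shares. Tnxb, which encodes the matrix protein tenascin X, measured 8.79, 7.71 and 9.94 RPKM without treatment, 0.162, 0.137 and 0.120 with Bic/4AP and 0.678, 0.635 and 0.475 with TTX. The collagen gene Col15a1 went from 5.29 ± 0.787 to 0.0983 ± 0.0274 RPKM, and Tgfbr3, the betaglycan gene, from 14.9 ± 2.34 to 2.53 ± 0.539 (SD, n = 3 each). For these 3 genes the TTX libraries were also below every untreated one. Tnxb and Col15a1 passed the RNA filter through the untreated libraries alone, so their lower calls were largely set by that filter. Of the 4 members in Tnxb, 2 were also in the other untreated list. A830018L16Rik, with 5 members and no shared peak, was higher instead, at 35.0 ± 0.344 and 49.6 ± 2.04 RPKM (SD, n = 3 each). Antxr2 and Myh8 were also called higher.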

How the data were processed

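Peaks were called per sample, and the deposited lists give the authors' score for each peak, 50 or higher. Names in the lists and the submitters' processing notes point to MACS 1.4.1, with Bowtie2 2.2.4, SAMtools 0.1.19, TopHat and mm10 also named. Deposited RNA values are the authors' RPKM from poly(A) libraries, per the labels' protocols; the counter and its strand setting are not given in the sources used here. Deposited methylation values are a fraction per CpG without coverage, so their depth is unknown. Peak coordinates are printed as deposited.

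Members were linked to the nearest TSS within 50 kb, from RefSeq tables of GRCm38.p6. These tables are incomplete (strand and TSS for 17492 of 21887 protein-coding genes, none on chromosome 18), so either end of the gene model stood in where no strand was given. RNA was tested with limma 3.58.1 (R 4.3.3, intensity trend) on log2(RPKM + 1), a scale that understates changes of low genes, in 1 fit of 9 libraries over genes at 1 RPKM or more in 3 libraries, with Benjamini-Hochberg adjustment over 14801 genes. The test was checked on simulated data. Values of 19576 of 19588 genes came out as whole reads within 0.05 of a read; a single read per kb equals 0.0799 to 0.234 RPKM.

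Named genes were those linked to the 10 highest scores, to the 15 highest scores held by both untreated lists, the 8 largest changes in each direction, linked genes of the lists, and Fos, Arc, Npas4 and Bdnf as a check. For methylation the 5 lowest, the 5 highest and the 5 largest differences each way were eligible. Genes with a promoter held by a member, and gene models with 6 or more members or with members alone, were chosen after their values were seen. Members and lists were chosen with earlier results of these data known. Alternatives were other score minimums, overlaps, distances, CpG minimums, pseudocounts, filters, scalings, a replicate block and leaving out each library. The input library was not analysed here. Some genes that the rule names are not reported here.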

Additional observations from a re-analysis of the deposited data

How the results depend on the processing

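The number of members was 2895 at a score minimum of 300. The share in the other untreated list was 2.42% at that minimum and 0.0622% when 50% of the member had to be covered, a rule that also brought the H3K4me1 share to 0.207%, since the H3K4me1 peaks have median widths of 198 and 190 bases. The promoter share was 8.2% with a TSS within 2.5 kb, 3.01% with a TSS inside the peak and 9.12% with either end of unstranded gene models. Mean untreated methylation was 0.627 over members with 10 or more CpGs and 0.601 as a mean over CpGs. With genes within 10 kb, fewer genes are tested (445), and the counts were 94 higher and 240 lower with Bic/4AP, and 185 higher and 116 lower with TTX. With the gene model that holds the member, TTX gave 365 of 1195 lower (30.5%, against 23.5% of all genes). Leaving out 1 library at a time gave 210 to 258 genes higher and 413 to 429 lower with Bic/4AP, and 304 to 384 higher and 207 to 248 lower with TTX.

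Same-numbered libraries did not deviate together (correlations from -0.17 to 0.04). These values show no shared deviation, but they cannot tell whether such libraries came from the same culture. With the replicate number as a block, 235 linked genes were higher and 427 lower with Bic/4AP, and 361 higher and 229 lower with TTX.

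The alternatives that use genes with RNA values, gene models, either gene end or a minimum of 5 RPKM were chosen after seeing the data. ChIP depth is not given, so a peak missing from a list cannot be told from one under its detection limit.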
